A study of Mus musculus with 6 samples.

Results

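The Sprr genes encode small proline-rich proteins of the cornified envelope, the crosslinked protein shell that replaces the plasma membrane of keratinocytes at the skin surface. The set described here holds 10 of them, Sprr1a, Sprr1b, Sprr2b, Sprr2d, Sprr2e, Sprr2f, Sprr2g, Sprr2h, Sprr3 and Sprr4, out of 21370 named genes on the array, and it was chosen by name. Each of the 10 was read by 1 probe, found through the gene symbol of the accession that the scanner files give for that probe. Their RNA was measured in the epidermis of mouse embryos at E16 on 6 two-colour Agilent arrays. Every array carried knockout RNA in one dye and RNA of a wild-type littermate in the other, with 2 arrays for each of Sox4 cKO (conditional knockout), Sox11 cKO and dcKO, the double conditional knockout of Sox4 and Sox11. The knockout RNA was in Cy5 on array 1 of each genotype and in Cy3 on array 2.

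The floxed Sox4 and Sox11 alleles were deleted with a Krt14-Cre transgene, which is active in basal keratinocytes and their descendants. Dermal, pigment and blood cells would thus keep both genes, which was not tested. The labels give the strain of both channels as 129SvEx:C57BL/6. Per the study's methods the floxed line had also carried a Sox12 null allele, Krt14-Cre came from FVB/N mice, and the epidermis was peeled from dorsal skin after dispase digestion. The labels call every control a wild-type littermate without listing its alleles. They do not say whether the RNA of several embryos was pooled, or whether the comparisons used the same wild-type RNA.

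Sprr proteins are short chains of proline-rich repeats with glutamine- and lysine-rich ends, which transglutaminases join to loricrin, involucrin and each other. The genes lie in a cluster within the epidermal differentiation complex, which also holds the genes for loricrin, involucrin, filaggrin and the late cornified envelope (Lce) proteins. Sprr1 and Sprr2 transcripts appear in the upper layers of stratifying epithelia and rise in wounds and inflamed skin, Sprr3 is best known from the oral and oesophageal lining, and AP-1 and ETS factors are known to act on Sprr promoters. Along chromosome 3 the family runs in the order Sprr2a1, Sprr2a2, Sprr2a3, Sprr2b, Sprr2c-ps, Sprr2d, Sprr2e, Sprr2f, Sprr2g, Sprr2h, Sprr2i, Sprr2j-ps, Sprr2k, Sprr1b, Sprr3, Sprr1a and Sprr4.

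RefSeq promoter sequences of the build GRCm38.p6, 250 bases before to 50 bases after each gene's start, were found for 9 of the 10 genes. The promoters shown belong to the 2 genes that passed the test in dcKO (Sprr2d and Sprr2h), to the neighbour of Sprr2d whose promoter is closest to it (Sprr2e), to Sprr1b of the Sprr1 group, and to Sprr3, whose ratio ran the other way in dcKO. Capitals mark matches on either strand to an AP-1 motif (TGANTCA), an ETS motif (CAGGAA) and the octamer motif ATTTGCAT. Sprr2d spans chr3:92338890-92339189, Sprr2e chr3:92351893-92352192 and Sprr2h chr3:92385435-92385734 on the plus strand, while Sprr1b spans chr3:92438730-92439029 and Sprr3 chr3:92458671-92458970 on the minus strand.
Sprr2d: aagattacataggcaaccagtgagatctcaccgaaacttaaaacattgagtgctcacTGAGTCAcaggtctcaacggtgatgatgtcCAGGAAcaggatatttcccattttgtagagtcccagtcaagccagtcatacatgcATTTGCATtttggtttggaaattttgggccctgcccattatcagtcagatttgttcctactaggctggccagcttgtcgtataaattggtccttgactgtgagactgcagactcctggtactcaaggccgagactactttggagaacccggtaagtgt
Sprr2e: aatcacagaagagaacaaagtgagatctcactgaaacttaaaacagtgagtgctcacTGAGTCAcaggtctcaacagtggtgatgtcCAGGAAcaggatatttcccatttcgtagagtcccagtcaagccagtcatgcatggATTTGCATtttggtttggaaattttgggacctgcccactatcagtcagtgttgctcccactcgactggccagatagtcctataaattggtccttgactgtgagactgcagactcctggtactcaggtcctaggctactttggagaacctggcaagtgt
Sprr2h: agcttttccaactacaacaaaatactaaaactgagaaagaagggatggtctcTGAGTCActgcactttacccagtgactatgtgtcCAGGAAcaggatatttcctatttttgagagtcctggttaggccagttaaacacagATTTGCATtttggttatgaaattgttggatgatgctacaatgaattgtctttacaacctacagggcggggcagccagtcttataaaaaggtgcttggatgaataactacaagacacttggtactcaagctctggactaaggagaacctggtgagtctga
Sprr1b: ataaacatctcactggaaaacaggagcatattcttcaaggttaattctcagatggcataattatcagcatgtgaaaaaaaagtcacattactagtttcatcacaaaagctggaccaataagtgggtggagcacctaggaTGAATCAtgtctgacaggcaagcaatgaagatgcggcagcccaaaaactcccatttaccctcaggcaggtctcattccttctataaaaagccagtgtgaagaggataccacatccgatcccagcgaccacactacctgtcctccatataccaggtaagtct
Sprr3: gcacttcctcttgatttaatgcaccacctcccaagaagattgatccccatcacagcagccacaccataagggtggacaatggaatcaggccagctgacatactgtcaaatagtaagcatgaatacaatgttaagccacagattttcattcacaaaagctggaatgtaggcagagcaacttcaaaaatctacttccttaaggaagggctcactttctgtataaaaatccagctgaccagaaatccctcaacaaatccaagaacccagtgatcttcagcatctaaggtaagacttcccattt

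In 4 of the 5 Sprr2 promoters of the set, those of Sprr2d, Sprr2e, Sprr2f and Sprr2h, the AP-1, ETS and octamer matches stood in the same order at similar distances from the start. In Sprr2d and Sprr2e the AP-1 match began 193 bases, the ETS match 163 bases and the octamer 108 bases before the start, and in Sprr2h they began 198, 164 and 109 bases before it. Sprr2b had its AP-1 match 195 and its octamer 108 bases before the start, while its ETS match lay just after the start. Outside the set, the promoters of Sprr2a1, Sprr2a2 and Sprr2a3 held an ETS match and neither of the other motifs. No match to TATAAA lay in these windows either. Those of Sprr2a1 and Sprr2a2 ended in a stretch like the one that stands before the TATAAA match of Sprr2b. Absence and distance of motifs there are therefore not comparable with the other Sprr2 promoters. The promoters of Sprr2d and Sprr2e were 88% identical over their best alignment without gaps, against 42.5% for Sprr2d and Sprr2h. Sprr1b held an AP-1 match 111 bases before the start and neither of the other motifs. Sprr1a held AP-1 matches 146 and 116 bases and an ETS match 62 bases before its start. Sprr3 held none of the capitalised motifs. Over the 9 promoters, 7 held the AP-1 motif, against 7.81% of 32851 mouse promoters of the same length. The ETS motif was in 7 of 9 (30.6% of all promoters), the octamer in 5 of 9 (1.74%), a SOX-type motif, ACAANG, in 5 of 9 (41.2%), and the TATA motif TATAAA in 8 of 9 (13.6%). The 5 promoters with the octamer were the 5 Sprr2 promoters among the 9. These matches describe the letters of the window and say nothing of a factor's binding.

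The share of non-control spots that stood well above background ran from 38.9% to 43.6% per channel, and saturation was not seen on any array. Of the Sox4 probes, the dimmer one was lower on both Sox4 cKO arrays (−1.66 and −2.26) and on both dcKO arrays (−1.55 and −1.61), all as log2 of knockout over wild type. The brighter one read −0.14 and −0.71 in Sox4 cKO (adjusted p = 0.803) and −0.95 and −0.69 in dcKO (adjusted p = 0.0778) and did not pass, and where the probes lie relative to the deleted part was not tested. The Sox11 probes lay at or near background and did not check the Sox11 labels. All 12 markers of epidermis on the list used were above background. Ratios are log2 of knockout over wild type throughout, a fold is 2 raised to that value, and a gene passed the test at a Benjamini-Hochberg adjusted p under 0.05 in limma over all probes. The term called was kept for genes that also moved by more than 1.5 on the log2 scale. Probes differ in their brightness, so levels are compared between arrays for a gene and not between genes.

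Sprr2d and Sprr2h rose in dcKO epidermis, and Sprr2d alone was called. Those 2 of 10 genes passed the test upward, against 0.523% of all probes, and the 1 called gene compares with 0.172% of probes called upward. No Sprr gene passed downward, against 0.307% of probes. The other 8 did not pass in dcKO, and in neither single knockout did any of the 10 pass. The median ratio over the 10 came to 0.19 in dcKO, beside −0.01 over all named genes. It was 0.10 for the Sox4 cKO arrays and 0.03 for the Sox11 cKO arrays, beside 0.00 over all named genes in both. In dcKO 4 of the 10 were higher on both arrays (Sprr1b, Sprr2d, Sprr2g and Sprr2h), against 25.7% of named genes, 2 were lower on both (Sprr2b and Sprr3), against 27.8%, and 4 were mixed. In Sox4 cKO 4 were likewise higher on both (23.5% of named genes) and 1 lower (23%), and in Sox11 cKO 2 were higher (23.1%) and 1 lower (22.2%). These medians and counts include Sprr2b and Sprr4, above background on 0 arrays, and Sprr2f, above it on 2. Sprr2b was the 1 lower in Sox4 cKO, Sprr4 was among the 4 higher there, and Sprr2f was the 1 lower in Sox11 cKO.

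**Figure D1:**
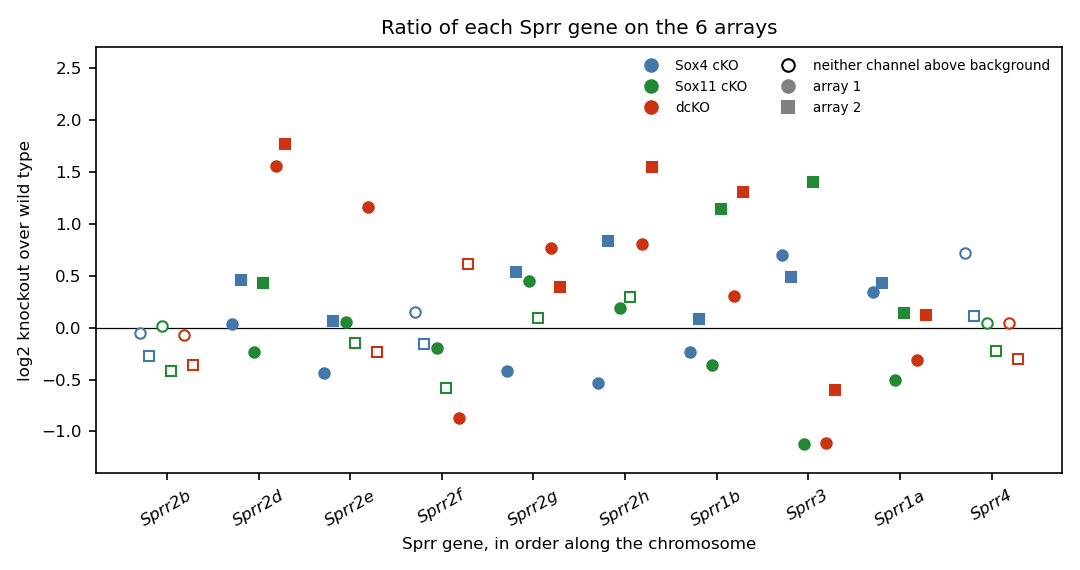
Log2 of knockout over wild type (vertical axis) for the 10 Sprr genes in chromosomal order (horizontal axis), 1 point per array, coloured by genotype, with circles for array 1 and squares for array 2. Open points mark arrays on which neither channel was well above background. Both dcKO points of Sprr2d, at 1.56 and 1.77, lie above its 4 single knockout points, and both Sox4 cKO points of Sprr1a, at 0.34 and 0.43, lie above its other 4, while the remaining genes overlap between genotypes or have open symbols.

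Sprr2d (probe A_51_P435588) belongs to the Sprr2 group, small envelope crosslinkers of the upper epidermis. Its ratio was 1.56 and 1.77 on the dcKO arrays, 0.03 and 0.46 on the Sox4 cKO arrays, and −0.23 and 0.43 on the Sox11 cKO arrays. The dcKO values lay above all 4 single knockout values and the groups did not overlap. The fitted change in dcKO was 1.66 ± 0.14 (SE, n = 2), or 3.17-fold, with an adjusted p of 0.00102. In Sox4 cKO it was 0.25 ± 0.14 (adjusted p = 0.829) and in Sox11 cKO 0.10 ± 0.14 (adjusted p = 0.926). The difference between genotypes was itself tested: dcKO exceeded Sox4 cKO by 1.42 ± 0.19 (adjusted p = 0.0423; 0.126% of probes passed upward) and Sox11 cKO by 1.57 ± 0.19 (adjusted p = 0.0216; 0.122% of probes). On Sox11 cKO array 2 the wild-type channel of Sprr2d was not well above background, so that the measured part of the Sox11 cKO value is array 1, at −0.23. Its excess over the sum of both single knockouts, 1.32 ± 0.24, had an adjusted p of 0.235 and did not pass, where 0.0718% of probes passed upward. With Agilent's own log ratio the Sprr2d change in dcKO was 1.94 with an adjusted p of 0.309, a setting in which no probe on the array passed. Without dcKO array 1 its change was 1.498 (adjusted p = 0.0119), just short of the fold threshold. Both differences from the single knockouts missed the threshold without that array (adjusted p = 0.219 for Sox4 cKO and 0.0986 for Sox11 cKO) and without the dye term (0.209 and 0.132), and each missed it without either array of the single knockout compared (0.109 to 0.321).

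Sprr2h (probe A_66_P138462) encodes another Sprr2 crosslinker. Its ratio was 0.81 and 1.54 on the dcKO arrays, −0.53 and 0.83 on the Sox4 cKO arrays, and 0.19 and 0.30 on the Sox11 cKO arrays. The lower dcKO value lay within the Sox4 cKO range, so these genotypes overlapped. The fitted change in dcKO was 1.18 ± 0.20 (SE, n = 2), or 2.26-fold, with an adjusted p of 0.0358. Its differences from Sox4 cKO (1.02 ± 0.28, adjusted p = 0.553) and from Sox11 cKO (0.93 ± 0.28, adjusted p = 0.561) did not pass. Sprr2h no longer passed without the dye term (adjusted p = 0.194) or with dim probes left out (adjusted p = 0.0508). Leaving out dcKO array 1 or array 2 also lost the pass. The change itself lay between 1.17 and 1.18 in each of these settings.

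The remaining Sprr2 genes did not pass in dcKO. Sprr2g, annotated as a transcribed pseudogene, had ratios of 0.77 and 0.39 on the dcKO arrays, −0.42 and 0.53 in Sox4 cKO, with 0.45 and 0.09 on the Sox11 cKO arrays. Both dcKO values were above 0 but lay among those of the other genotypes, with a fitted change of 0.58 ± 0.22 (SE, n = 2, adjusted p = 0.439). Sprr2e, whose promoter is the closest to that of Sprr2d, read 1.16 and −0.23 on the dcKO arrays, −0.44 and 0.07 in Sox4 cKO, with 0.05 and −0.14 on the Sox11 cKO arrays. It was above background on dcKO array 1 in both channels and on array 2 in neither, so its fitted change of 0.47 ± 0.26 (adjusted p = 0.621) mixes a measured ratio with an unmeasured one. Sprr2f was above background only in the wild-type channel of Sox11 cKO array 1 and of dcKO array 1, with ratios of −0.20 and −0.87 there. Sprr2b stood well above background on 0 of the 6 arrays. The scanner files used here hold no probe sequences, and sharing of a probe between Sprr2 copies was not tested.

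**Figure D2:**
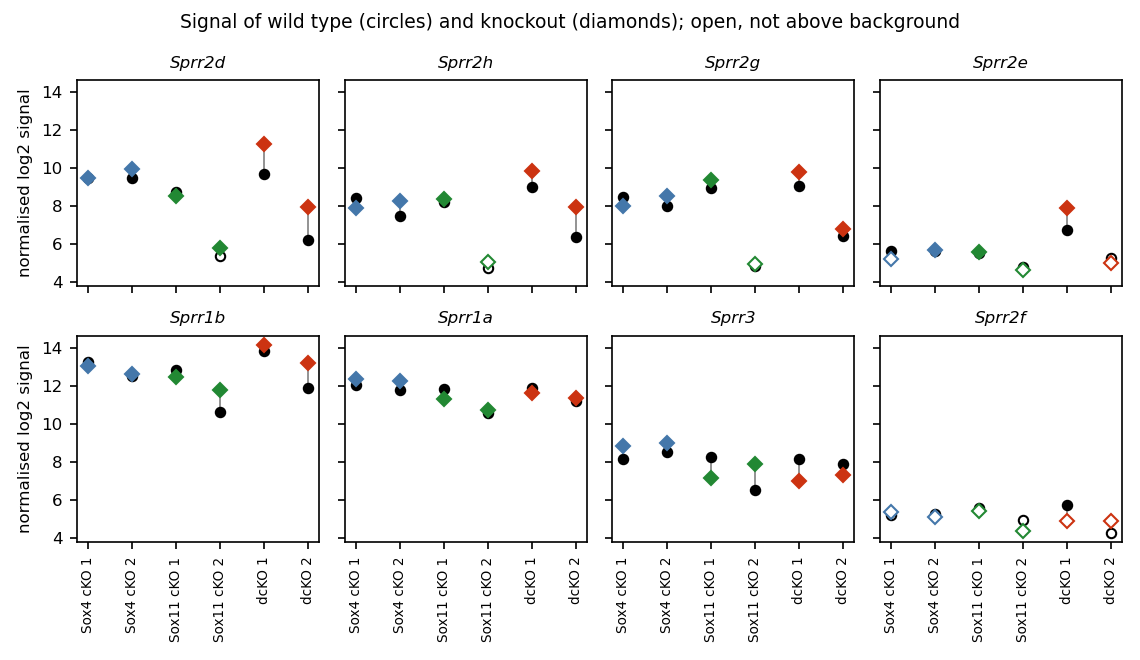
Normalised log2 signal (vertical axis) of wild type (black circles) and knockout (coloured diamonds) on each of the 6 arrays (horizontal axis) for 8 Sprr genes, with open symbols where the channel was not well above background and a grey line joining the channels of an array. Sprr2d, Sprr2h and Sprr2g stand low in both channels of Sox11 cKO array 2 and dcKO array 2, and heights are comparable within a panel only.

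The Sprr1 genes encode envelope precursors that are also known as cornifins, and both were above background in both channels of all 6 arrays. Sprr1b read 0.31 and 1.31 on the dcKO arrays, −0.23 and 0.08 in Sox4 cKO, with −0.36 and 1.14 on the Sox11 cKO arrays. The higher Sox11 cKO value lay between the dcKO values, so the genotypes overlapped. Its fitted change in dcKO, 0.81 ± 0.19 (SE, n = 2), had an adjusted p of 0.145. That change passed with a larger background offset (adjusted p = 0.0256), with no background subtraction (0.033) and after ComBat on the dye orientation (0.0402). In these settings 750, 640 and 1810 of all probes passed upward in dcKO, against 291 in the main fit. Sprr1a, in contrast, read −0.31 and 0.12 on the dcKO arrays, with a fitted change of −0.10 ± 0.14 (adjusted p = 0.889). It was higher on both Sox4 cKO arrays, at 0.34 and 0.43, above all 4 values of the other genotypes, and read −0.50 and 0.14 in Sox11 cKO. The fitted 0.39 ± 0.14 in Sox4 cKO (adjusted p = 0.795) did not pass.

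Sprr3 showed the lowest fitted dcKO value of the 10, and its ratios varied most between arrays of a single knockout. It read −1.11 and −0.61 on the dcKO arrays, 0.70 and 0.49 in Sox4 cKO, with −1.12 and 1.40 on the Sox11 cKO arrays. The dcKO values lay below both Sox4 cKO values, and the Sox11 cKO arrays fell on opposite sides of 0. The fitted change in dcKO was −0.86 ± 0.36 (SE, n = 2, adjusted p = 0.488), and the difference from Sox4 cKO was −1.45 ± 0.51 (adjusted p = 0.750). Krt4 and Krt19, keratins of simple and internal epithelia that also mark periderm, the transient outer layer of fetal skin, were higher on both Sox4 cKO arrays (Krt4 1.19 and 0.78, Krt19 0.88 and 0.50). In dcKO they were lower on both (Krt4 −1.27 and −1.72, Krt19 −1.54 and −1.26), as was Sprr3. They were lower on both Sox11 cKO arrays too (Krt4 −1.44 and −1.51, Krt19 −1.58 and −0.62), where Sprr3 was lower on array 1 and higher on array 2. The median over the 8 periderm markers came to −0.77 in dcKO, against −0.88 in Sox11 cKO and 0.43 in Sox4 cKO, with Krt4 and Krt19 passing downward and Krt23 upward in dcKO (1.35 ± 0.20, adjusted p = 0.0216). All 8 were above background, and the log2 of their summed signal in dcKO was 14.89 to 14.95 against 13.92 to 14.24 in the wild type. That sum was mostly Krt23, at 14.64 to 14.75 in dcKO, and ran opposite to the list's median. Their part in the Sprr3 values was not tested. Sprr4, a more distant family member, also stood well above background on 0 of the 6 arrays.

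In the single knockouts the 10 genes gave no pass in either direction. In Sox4 cKO 0% of probes passed upward and 0.00539% downward, and in Sox11 cKO 0% passed either way. At an unadjusted p under 0.05 in limma, 2 of the 10 were higher in Sox4 cKO (Sprr1a and Sprr4, which was not above background), beside 2.77% of all probes, and 0 were lower, beside 3.4%. In Sox11 cKO 0 were higher in limma, beside 3.76%, and 0 lower, beside 3.28%. In dcKO 4 were higher, beside 4.96%, and 1 lower, beside 4.93%. Between Sox4 cKO and Sox11 cKO no Sprr gene passed in limma, where 0.0018% of probes passed upward, and 2 were higher at an unadjusted p under 0.05, beside 2.54% of probes, and 0 lower, beside 2.73%. For Sprr2g and Sprr2h the Sox11 cKO value rests on array 1 alone, since neither channel of array 2 was above background.

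The signals of Sprr2d, Sprr2g and Sprr2h differed more between arrays than between knockout and wild type. In wild-type epidermis Sprr2d had a normalised log2 signal of 9.45 and 9.48 on the Sox4 cKO arrays, 8.73 and 5.38 on the Sox11 cKO arrays, and 9.70 and 6.20 on the dcKO arrays. The knockout channel followed, at 9.49 and 9.94, 8.50 and 5.80, and 11.25 and 7.97. Sox11 cKO array 2 and dcKO array 2 were thus the lowest in both channels, and the dcKO signal on array 2 stayed below all 4 wild-type signals outside those arrays. Taking the level as the mean of both channels, Sprr2d spanned 4.89 on the log2 scale over the 6 arrays, a range exceeded by 0.197% of the 12688 genes above background on at least 2 arrays. Sprr2h spanned 4.52 and Sprr2g 4.51. These spans are lower limits where the lowest signal was not above background.

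Of the 4 Sprr genes with a channel above background on all 6 arrays, Sprr1a, Sprr1b and Sprr2d had their lowest levels on Sox11 cKO array 2 and dcKO array 2, against 4.02% of 11158 such genes, and Sprr3 did not. Sprr2e and Sprr2f were above background on neither of these arrays, so their order there is not known. Sprr2g and Sprr2h also had their lowest levels on these arrays. Their levels were above background on dcKO array 2 and not on Sox11 cKO array 2. Sprr2a2, outside the set, did not share the pattern and spanned 0.16 over the 6 arrays at its brightest probe. Sprr1b, for instance, had wild-type signals of 13.24 and 12.51, 12.82 and 10.62, and 13.81 and 11.89 in the same order of arrays. Sprr1a spanned less, 1.54, with its lowest wild-type signal, 10.58, on Sox11 cKO array 2. The pattern was seen in the data first and is a description, and whether embryo age, litter or dissection differed between these arrays is not given in the sources used here. The knockout and wild-type channels of an array moved together, so the ratios of Sprr2d in dcKO, 1.56 and 1.77, came from a high and a low array alike.

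**Figure D3:**
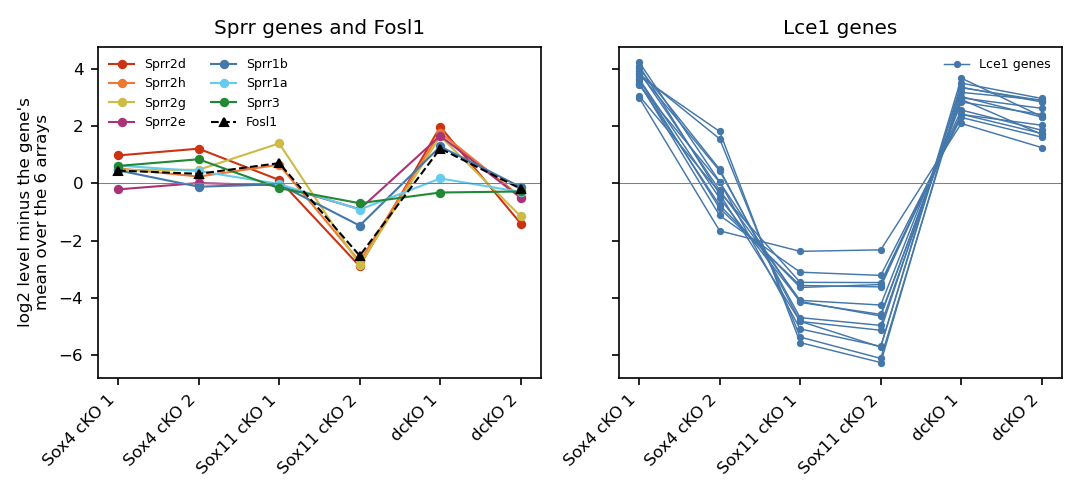
Level of each gene (mean of both channels' normalised log2 signal) minus its mean over the 6 arrays, on the vertical axis, for each array on the horizontal axis, with Sprr genes and Fosl1 on the left and 14 Lce1 genes on the right. Most Sprr genes and Fosl1 dip on Sox11 cKO array 2 and dcKO array 2, where some Sprr levels are background readings, whereas the Lce1 genes are low on both Sox11 cKO arrays and high on Sox4 cKO array 1 and both dcKO arrays.

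The array pattern of the Sprr genes was shared only in part by their neighbours in the complex. Of 16 other envelope genes of the complex above background on all arrays, 0 had both Sox11 cKO array 2 and dcKO array 2 lowest. Of 12 epidermis markers, 1 did. A dip on Sox11 cKO array 2 alone was seen in some neighbours and not in others. Wild-type Ivl read 9.66 and 7.47 on the Sox11 cKO arrays and Crct1 13.43 and 11.11, whereas Prr9 read 10.77 and 10.63. The 14 Lce1 genes, which encode late envelope proteins, had a median wild-type signal of 13.33 and 8.92 on the Sox4 cKO arrays, 5.46 and 4.97 on the Sox11 cKO arrays, and 11.07 and 10.35 on the dcKO arrays. They were therefore low on both Sox11 cKO arrays, on the first of which Sprr2d was not low, and highest on Sox4 cKO array 1. Among 31 regulators linked to Sprr promoters and above background on all arrays, 7 had their lowest levels on the arrays where the Sprr genes were low. The share over all 11158 such genes was 4.02%. Fosl1, an AP-1 subunit that is known to act on Sprr promoters, was among the 7, with wild-type signals of 8.68 and 8.25, 8.97 and 5.66, and 9.24 and 8.04. Its span was 3.76, exceeded by 0.433% of the 12688 genes. Junb, another AP-1 subunit, spanned 1.32 with the same 2 lowest arrays, and Klf4, a differentiation factor of the upper epidermis, spanned 1.14 without them. Of the other AP-1 subunits on the list, Fos and Fosl2 had the same 2 lowest arrays, while Fosb, Jun and Jund did not. The span of Fos was 1.03 and that of Fosl2 only 0.34, exceeded by 9.95% and 65.7% of the 12688 genes.

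Most regulators on that list did not pass in dcKO. Of the 33 on the array, 1 passed upward and 1 downward there, against 0.523% and 0.307% of all probes. The median over the 33 was −0.05. Whether any of them followed Sprr2d over the arrays was not tested. Prdm1, a transcriptional repressor of the granular layer that is also called Blimp1, was higher by 0.96 ± 0.17 (adjusted p = 0.0426), and Elf5, an ETS factor of epithelial cells, was lower, at −1.90 ± 0.15 (adjusted p = 0.000991). Fosl1 (0.23 ± 0.18, adjusted p = 0.734), Junb (0.11 ± 0.13, adjusted p = 0.846) and Klf4 (0.18 ± 0.19, adjusted p = 0.825) did not pass.

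The envelope genes around the Sprr cluster moved unevenly in dcKO. Of 37 other envelope genes of the complex, 21 rose and 1 fell, with a median of 1.38, against 0.523% and 0.307% of all probes. All 14 Lce1 genes rose, by 2.24 (Lce1a1) to 4.63 (Lce1b). None of the 6 Lce3 genes passed in limma, with fitted values from −0.79 (Lce3f) to 0.95 (Lce3d), below those of Sprr2d and Sprr2h. All 6 read higher on dcKO array 2 than on array 1. Lce3c read 0.04 and 1.79, Lce3d 0.07 and 1.82, Lce3a −2.20 and 1.57, and Lce3f −2.03 and 0.46. On array 2 Lce3c and Lce3d thus stood above Sprr2d, at 1.77. The gene that fell was Prr9 (−1.52 ± 0.17, adjusted p = 0.00511), which encodes a proline-rich protein. Ivl (1.25 ± 0.29, adjusted p = 0.136) and Lor (0.42 ± 0.24, adjusted p = 0.624), the genes for involucrin and loricrin to which Sprr proteins are joined, did not pass. Among 11 crosslinking and scaffold genes 0 passed in limma and 4 were higher at an unadjusted p under 0.05, beside 4.96% of all probes, with a median of 0.25. In Sox11 cKO 0 passed and 5 were higher at that p in limma, beside 3.76%, with a median of 0.41. Tgm1 and Tgm3, the transglutaminases that join envelope proteins, had fitted values of 0.20 ± 0.13 (adjusted p = 0.662) and 0.62 ± 0.16 (adjusted p = 0.179). The suprabasal keratins Krt1 (0.64 ± 0.27, adjusted p = 0.489) and Krt10 (0.63 ± 0.25, adjusted p = 0.468) did not pass either. The difference between the Sprr genes and the other lists was not tested.

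**Figure D4:**
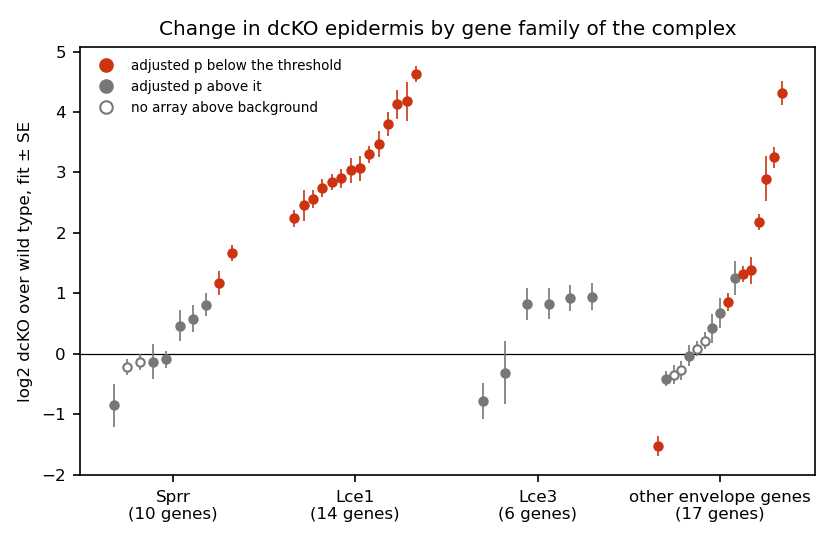
Fitted log2 change in dcKO with its standard error (vertical axis) for the 10 Sprr genes, 14 Lce1 genes, 6 Lce3 genes and 17 other envelope genes of the complex (horizontal axis), sorted within each family, in red where the gene passed the test and open where no dcKO array was above background. The highest Sprr gene, Sprr2d at 1.66, lies below the lowest Lce1 gene, Lce1a1 at 2.24, and above the highest Lce3 gene, Lce3d at 0.95. The arrays behind the Lce3d fit read 0.07 and 1.82.

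Markers of other cell types were read beside these changes. The 8 dermal fibroblast markers had a median of −1.73 in dcKO, with 7 lower on both arrays, 4 lower at an unadjusted p under 0.05, beside 4.93% of all probes, and 0 passing in limma. In the single knockouts the arrays went opposite ways, with list medians of −3.00 and 0.87 in Sox4 cKO and of 1.11 and −0.67 on the Sox11 cKO arrays. The log2 of their summed signal was 12.92 to 13.18 in dcKO and 13.07 to 13.62 in its wild type. In dcKO that sum was mostly Dcn, at 12.88 and 12.77, the 1 marker that was higher on both arrays (0.40 and 0.30). It ran closer to the wild type than the list's median did. Of the 8, 1 was above background in neither channel of the dcKO arrays. The part of these markers in the Sprr values was not tested. In whole epidermis, more cells of a layer and more RNA per cell cannot be told apart.

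Other Sprr loci with a named probe were read as well. Sprr2a2, a Sprr2 gene at the start of the cluster, had 3 probes that disagreed. The probe A_55_P2048855 read 1.88 and 2.07 on the dcKO arrays, 0.37 and 1.12 in Sox4 cKO, with 0.40 and 0.37 on the Sox11 cKO arrays. Its dcKO change of 1.97 ± 0.16 (adjusted p = 0.000928), or 3.93-fold, passed, as did its difference from Sox11 cKO (1.59 ± 0.22, adjusted p = 0.0459) but not that from Sox4 cKO (1.23 ± 0.22, adjusted p = 0.156). The brightest probe (A_55_P1974976) read 0.00 and −0.11 in dcKO (−0.06 ± 0.15, adjusted p = 0.944), and the dim probe A_55_P2048853 had 0.36 ± 0.14 (adjusted p = 0.446). The promoter windows of Sprr2a1, Sprr2a2 and Sprr2a3 were 100% identical where they overlap, that of Sprr2a3 being shifted, and the probes may not tell these copies apart. Sprr2j-ps (0.54 ± 0.17, adjusted p = 0.314) and Sprr2k (at least 1.60-fold higher, adjusted p = 0.327) did not pass in dcKO, and Sprr2i was not above background.

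The genes closest to the family in their ratios were found by the root mean square difference over the 6 arrays from the median of the 4 Sprr genes above background on all of them (Sprr1a, Sprr1b, Sprr2d and Sprr3). They were Cish (0.162), Pttg1ip2 (0.169), Cav2 (0.170), Ceacam9 (0.171) and Tnfsfm13 (0.173). Pttg1ip2 and Ceacam9 were above background on 0 arrays and Tnfsfm13 on 2. The median that they follow hides the spread among the 4 Sprr genes, whose dcKO values ran from −0.86 for Sprr3 to 1.66 for Sprr2d.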

How the data were processed

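Total RNA was hybridised to 6 two-colour arrays, knockout against wild-type littermate, with 2 arrays per genotype (Sox4 cKO, Sox11 cKO, dcKO) and the dyes swapped between them. The authors extracted the scans with Agilent Feature Extraction 11.0.1.1, per the labels, and the deposited scanner files hold the median intensity of each spot and its local background in both channels, not normalized, with detection flags and Agilent's log10 ratio of red over green. The authors' series table holds log2 ratios, found to be knockout over wild type. The study's methods state that it was made in limma by normexp correction with an offset of 16 and loess, with a colour effect removed by ComBat.

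Ratios were computed here from the intensities in R 4.3.3 with limma 3.58.1: normexp with an offset of 16, loess within arrays, removal of control spots and of outlier spots (183 to 233 outliers per array), and averaging of spots of a probe, which left 55681 probes. For the Sprr probes they differed from the authors' log2 ratios by at most 0.01. The model held 1 coefficient per genotype and 1 dye coefficient, which was also the replicate block, with empirical Bayes moderation (2 residual and 6.63 prior degrees of freedom). All tests were two-sided and adjusted over all probes. Deviations of arrays with the same replicate number, taken from the labels, correlated at r = 0.258, 0.306 and 0.328. Dye orientation coincided with replicate number, so this correlation cannot tell a pairing of the arrays from a dye effect. All arrays lay on 1 slide read in 1 scan, so slide and scan effects could not be fitted. For signals, channels were also scaled between arrays with Aquantile. A gene with several probes was read by its brightest. A bound of at least N-fold sets the bright channel against the dim one, and is open to dye bias. The dim channel enters with its own signal or the lowest signal of any detected probe, whichever is higher. For Sprr2k in dcKO the bound equalled the fitted fold of 1.60.

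Probes were named through RefSeq symbols of GRCm38.p6, and 28341 probes received 1 of 21370 symbols. The named genes were all 10 Sprr genes, up to 5 passing genes of each other list, and a few regulators and envelope genes. The genes and lists were chosen with earlier results of these data known. The labels do not say that replicates came from separate litters. The p-values rest on the spread left between these arrays after the dye term. That spread was moderated towards the spread of all probes, with 2 residual and 6.63 prior degrees of freedom. An SE can therefore be small where the arrays of a genotype differ, as for Sprr1b in dcKO (0.31 and 1.31, SE 0.19). The number of arrays limits the precision. The fit was tested on simulated data. Figures were drawn with matplotlib.

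Alternatives were a background offset of 50, no background subtraction, the authors' table, Agilent's log ratio, median centring, no dye term, ComBat, fits on a genotype's own arrays, a filter on probes above background on 2 or more arrays, the mean over a gene's probes, and leaving out each array.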

Additional observations from a re-analysis of the deposited data

Results flagged for a closer look

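The response of Sprr2d differed between genotypes. Its log2 change in dcKO exceeded that in Sox4 cKO by 1.42 ± 0.19 (SE, limma contrast, adjusted p = 0.0423) and that in Sox11 cKO by 1.57 ± 0.19 (adjusted p = 0.0216), and it was higher on 2 of 2 dcKO arrays than on all 4 single knockout arrays. Both differences missed the threshold without the dye term (adjusted p = 0.209 and 0.132), with Agilent's log ratio (0.651 and 0.632) and without dcKO array 1 (0.219 and 0.0986), and that from Sox4 cKO also with median centring (0.114). Each also missed it without either array of the single knockout compared. The wild-type channel of Sprr2d was not well above background on Sox11 cKO array 2. No other Sprr gene passed such a test. With 2 arrays per genotype no array could be tested for standing apart within its group.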

How the results depend on the processing

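Of the counts of Sprr genes past the threshold, those of the single knockouts and of Sox4 cKO against Sox11 cKO stayed at 0 under every alternative tried. For dcKO, 2 genes passed, against 0 with Agilent's log ratio (where 0 probes passed on the whole array) and 1 with dim probes left out. Without the replicate block, which coincides with the dye, the count was 1 for dcKO and 0 for the differences of dcKO from Sox4 cKO and from Sox11 cKO. Both differences also went from 1 to 0 with Agilent's log ratio, and that from Sox4 cKO to 0 with median centring. The excess over the sum of the single knockouts went from 0 to 1 with an offset of 50, with no background subtraction and with ComBat. There 80, 78 and 83 of all probes passed upward for that excess, against 40 in the main fit. The 1 called gene in dcKO, Sprr2d, became 0 with an offset of 50 (log2 change 1.47) and with Agilent's log ratio. Leaving out single arrays gave 1 to 2 genes in dcKO, and 0 to 1 for the called gene, the difference from Sox4 cKO, that from Sox11 cKO and the excess over the sum, where Sprr3 passed downward without Sox11 cKO array 1. A genotype left with 1 array was assumed to vary like the others. The cause of these changes was not tested.

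Signs turned for values that had not passed. With Agilent's log ratio Sprr2b came to 0.105 in Sox4 cKO and 0 in Sox11 cKO, and Sprr2f to 0.764 in Sox4 cKO. With median centring Sprr1b (0.135) and Sprr2f (0.002) turned in Sox4 cKO and Sprr2e (0.072) in Sox11 cKO, and with no background subtraction Sprr2f (0.04) in Sox4 cKO. Over the left-out arrays the Sox4 cKO values ran from −0.54 to 0.39 for Sprr1b, −0.83 to 0.46 for Sprr2e, −0.43 to 0.42 for Sprr2f, −0.61 to 0.72 for Sprr2g, −0.32 to 0.62 for Sprr2h and −0.27 to 1.45 for Sprr3. The Sox11 cKO values ran from −0.372 to 0.015 for Sprr1a, −0.033 to 0.813 for Sprr1b, −0.071 to 0.265 for Sprr2d, −0.169 to 0.078 for Sprr2e, −0.88 to 0.10 for Sprr2f, −0.056 to 0.593 for Sprr2g, −0.23 to 0.72 for Sprr2h, −1.04 to 1.32 for Sprr3 and −0.192 to 0.011 for Sprr4. In dcKO they ran from −0.31 to 1.24 for Sprr2e and −1.05 to 0.79 for Sprr2f.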
